A study of Mus musculus with 12 samples.

Results

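The genes described here encode the Wnt ligands, the Frizzled receptors and the secreted frizzled-related proteins (Sfrp). They were chosen by symbol alone, as protein-coding genes of the RefSeq annotation (GRCm38.p6, the assembly that mm10 names) whose symbols begin with Wnt, Fzd or Sfrp followed by a digit. The choice found 33 of 21887 protein-coding genes, namely 19 ligands, 10 receptors and 4 antagonists. The study mapped INO80, the ATPase of a chromatin remodelling complex, and the histone variant H2A.Z by chromatin immunoprecipitation and sequencing in mouse spermatogenic cells taken on postnatal day 18. The groups were H2A.Z ChIP from Ino80cKO testes, in which Ino80 was deleted by a Cre driven from Stra8 and hence in germ cells from the premeiotic stage on, H2A.Z ChIP from Ino80WT testes, INO80 ChIP from wild-type testes, and an input group for each. All groups shared the mixed strain background, the age and the cell preparation, and each had 2 libraries, which the labels do not tie to separate animals. The values below come from 3 lists of peak positions, 1 for each ChIP group, so there is no value for a single library, no replicate error, no depth and no test. The lists cannot show the deletion of Ino80 or check the cell type by its markers.

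Wnt proteins are lipid-modified secreted ligands. They bind the extracellular domain of Frizzled receptors, together with co-receptors of the Lrp or Ror families, and act through stabilised beta-catenin or through beta-catenin-independent routes such as planar cell polarity. Sfrp proteins carry a domain related to the ligand-binding domain of Frizzled, bind Wnt ligands outside the cell and are mostly known as antagonists. In the testis, Wnt signals are known chiefly from spermatogonia and their somatic neighbours, and many Wnt and Frizzled genes belong to the developmental genes whose promoters carry poised chromatin in embryonic stem cells.

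Promoters of 6 of these genes are shown first because they carry the patterns described below. INO80 lay over all of them. Wnt1 had no Ino80WT H2A.Z peak anywhere in its window, Wnt16 no Ino80cKO H2A.Z peak, and Sfrp5 no Ino80WT H2A.Z peak, whereas Fzd7, Fzd10 and Sfrp2 had H2A.Z over the start site in both genotypes. Each sequence is the RefSeq promoter of GRCm38.p6, from 250 bases before to 50 bases after the transcription start site, written 5′ to 3′ on the strand of the gene with CpG dinucleotides in capitals. Positions are chr15:98789607-98789906 on the plus strand for Wnt1, chr6:22287977-22288276 on the plus strand for Wnt16, chr1:59481897-59482196 on the plus strand for Fzd7, chr5:128600856-128601155 on the plus strand for Fzd10, chr3:83766071-83766370 on the plus strand for Sfrp2 and chr19:42202203-42202502 on the minus strand for Sfrp5.
Wnt1: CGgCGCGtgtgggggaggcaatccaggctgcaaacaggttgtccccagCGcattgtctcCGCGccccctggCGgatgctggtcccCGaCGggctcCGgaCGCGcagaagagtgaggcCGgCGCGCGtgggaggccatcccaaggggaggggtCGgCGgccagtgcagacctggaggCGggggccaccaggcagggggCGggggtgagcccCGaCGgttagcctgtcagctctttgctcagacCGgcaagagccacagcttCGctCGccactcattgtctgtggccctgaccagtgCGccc
Wnt16: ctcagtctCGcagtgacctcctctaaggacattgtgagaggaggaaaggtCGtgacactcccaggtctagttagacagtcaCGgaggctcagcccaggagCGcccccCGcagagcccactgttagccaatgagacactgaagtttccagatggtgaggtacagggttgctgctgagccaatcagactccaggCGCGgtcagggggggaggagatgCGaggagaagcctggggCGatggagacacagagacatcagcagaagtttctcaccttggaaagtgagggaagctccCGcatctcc
Fzd7: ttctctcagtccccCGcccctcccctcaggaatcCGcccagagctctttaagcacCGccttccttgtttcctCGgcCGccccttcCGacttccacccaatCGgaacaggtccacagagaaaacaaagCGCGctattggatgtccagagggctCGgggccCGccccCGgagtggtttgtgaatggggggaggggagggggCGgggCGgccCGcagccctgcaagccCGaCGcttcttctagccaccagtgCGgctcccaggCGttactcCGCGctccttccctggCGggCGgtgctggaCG
Fzd10: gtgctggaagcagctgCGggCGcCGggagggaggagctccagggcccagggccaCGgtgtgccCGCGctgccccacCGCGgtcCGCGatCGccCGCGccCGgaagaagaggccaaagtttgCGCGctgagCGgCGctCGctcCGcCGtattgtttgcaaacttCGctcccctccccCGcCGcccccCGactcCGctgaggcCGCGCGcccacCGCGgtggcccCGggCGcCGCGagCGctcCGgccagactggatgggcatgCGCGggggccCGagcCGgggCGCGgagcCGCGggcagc
Sfrp2: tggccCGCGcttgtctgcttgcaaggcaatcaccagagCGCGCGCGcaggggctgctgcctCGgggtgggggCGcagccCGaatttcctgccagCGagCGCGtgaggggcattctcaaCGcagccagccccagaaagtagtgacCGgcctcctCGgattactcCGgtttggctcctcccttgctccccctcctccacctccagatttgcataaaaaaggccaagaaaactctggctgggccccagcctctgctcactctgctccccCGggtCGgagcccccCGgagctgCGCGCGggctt
Sfrp5: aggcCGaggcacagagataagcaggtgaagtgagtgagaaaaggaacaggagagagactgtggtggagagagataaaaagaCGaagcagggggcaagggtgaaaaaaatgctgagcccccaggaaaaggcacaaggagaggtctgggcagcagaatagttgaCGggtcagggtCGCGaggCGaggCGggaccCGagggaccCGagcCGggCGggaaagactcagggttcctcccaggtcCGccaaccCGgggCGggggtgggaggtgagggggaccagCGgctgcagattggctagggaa
CpG dinucleotides numbered 26 in the promoter of Wnt1, 10 in Wnt16, 24 in Fzd7, 45 in Fzd10, 22 in Sfrp2 and 15 in Sfrp5, against a median of 13 over 21263 promoters of protein-coding genes.

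The first comparison asked how many of the genes held each kind of peak. A gene was counted when a peak overlapped its body or the 2 kb on both sides by at least 1 bp, and this span is called its window. INO80 lay in the windows of 32 of 33 genes, against 61.4% of all protein-coding genes. Wnt8a was the exception. H2A.Z lay in the windows of 32 of 33 genes in the Ino80cKO list (68.0% of all genes) and of 31 of 33 in the Ino80WT list (71.6%). Every one of the 10 Frizzled genes held all 3 kinds of peak. Of the 19 ligands, 18 held INO80, 18 Ino80cKO H2A.Z and 18 Ino80WT H2A.Z, each time with a different gene missing (Wnt8a, Wnt16 and Wnt1). The 4 Sfrp genes all held INO80 and Ino80cKO H2A.Z, and 3 held Ino80WT H2A.Z. No gene of the 33 had INO80 without H2A.Z of either genotype, a state found at 1.12% of all genes.

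**Figure D1:**
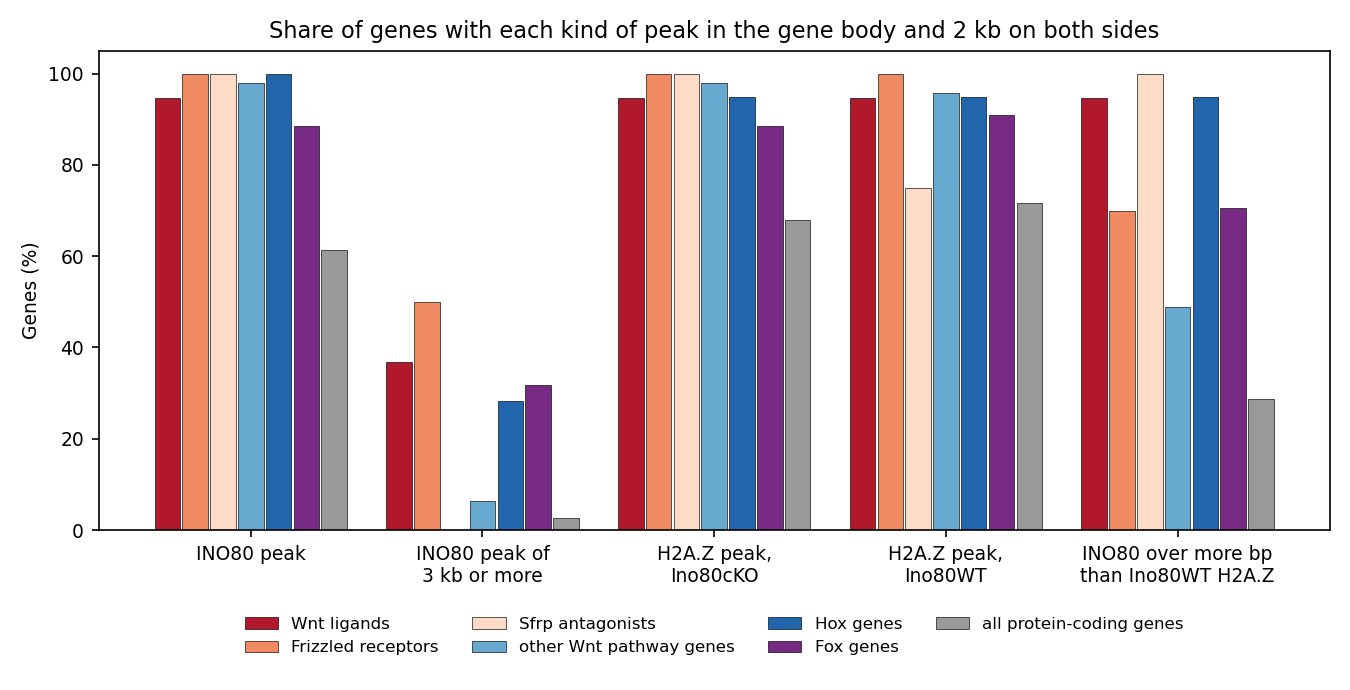
Bars give the percentage of genes in each set whose window (gene body and 2 kb on both sides) held an INO80 peak, an INO80 peak of at least 3 kb, an H2A.Z peak in either genotype, or more bases under INO80 than under Ino80WT H2A.Z. INO80 peaks of at least 3 kb were listed at 7 of 19 ligands, 5 of 10 receptors and none of the 4 antagonists, against 2.55% of all protein-coding genes.

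INO80 peaks at these genes were wide. The 55 distinct INO80 peaks in the windows had a median width of 1756 bp, against 678 bp over the 18139 peaks of the list. Of them, 13 (23.6%) spanned at least 3 kb, against 3.04% of the list. No H2A.Z peak in the windows reached 3 kb (0 of 60 in Ino80cKO and 0 of 65 in Ino80WT), a width that 0.0573% of the Ino80cKO list and 0.0739% of the Ino80WT list had. INO80 peaks of at least 3 kb lay at 12 of 33 genes, against 2.55% of all genes. These were the ligand genes Wnt1, Wnt3a, Wnt4, Wnt5a, Wnt7a, Wnt7b and Wnt9a and the receptor genes Fzd2, Fzd5, Fzd7, Fzd8 and Fzd10. In all, INO80 peaks covered a median of 3333 bp in the 33 windows and 421 bp in the windows of all genes, genes without INO80 included. Among genes with an INO80 peak the medians were 3373 bp here and 943 bp over all such genes. The windows were of like length, with a median of 20905 bp for the 33 genes and 21169 bp for all genes. H2A.Z peaks were closer to the rest of the genome. They covered a median of 1045 bp in Ino80cKO (509 bp over all genes) and 1275 bp in Ino80WT (704 bp over all genes). Among genes with such a peak the medians were 1092 bp in Ino80cKO (801 bp over all such genes) and 1301 bp in Ino80WT (948 bp).

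**Figure D2:**
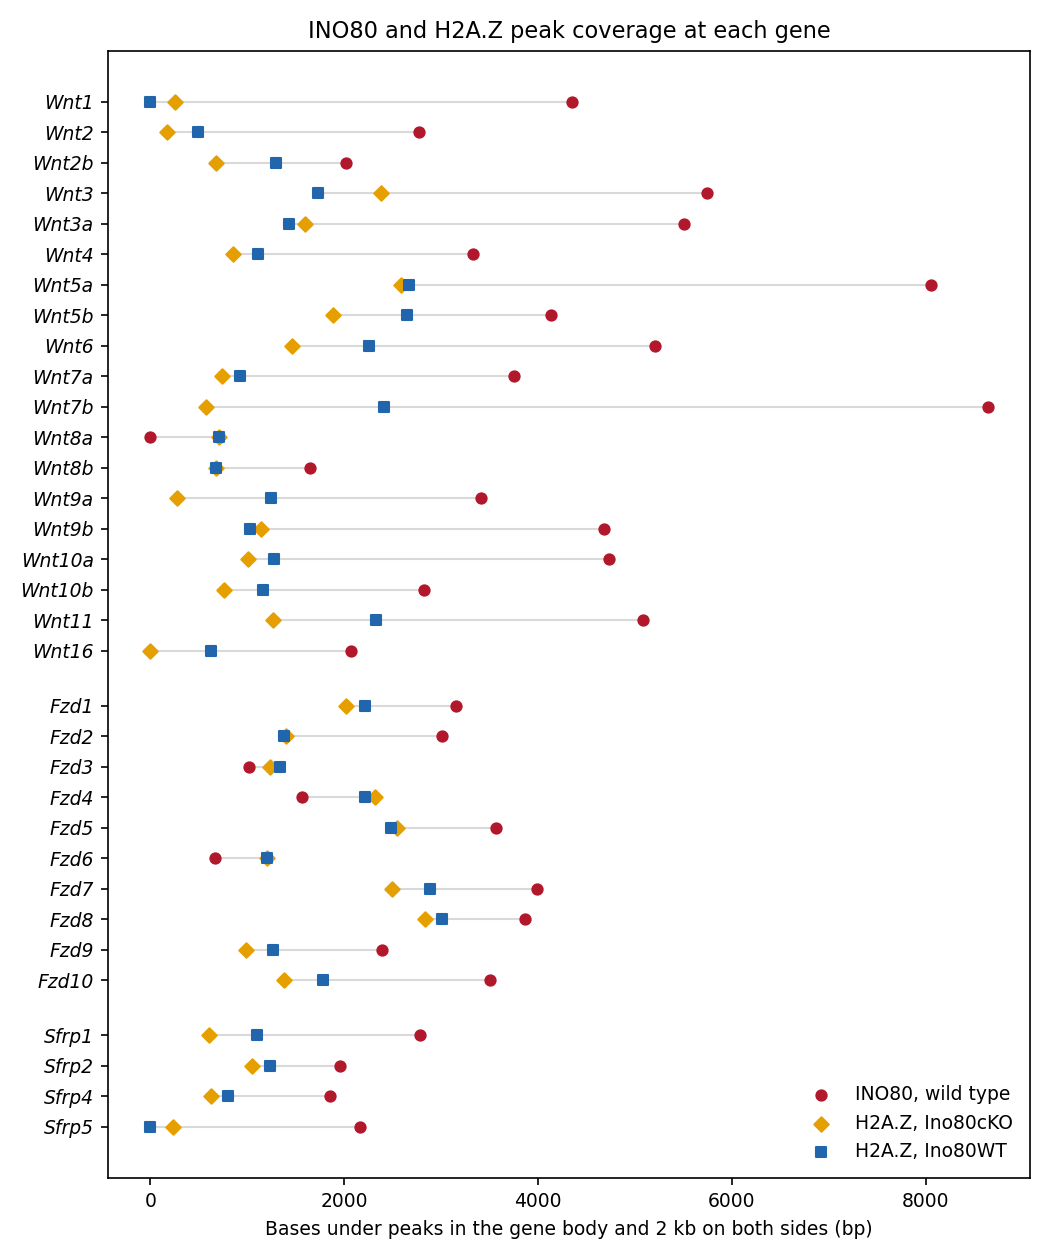
Each row is a gene, and the points give the bases under INO80 peaks (circles), Ino80cKO H2A.Z peaks (diamonds) and Ino80WT H2A.Z peaks (squares) in its window, in bp. INO80 lies far to the right of H2A.Z at most ligands, up to 8642 bp at Wnt7b, while Fzd3, Fzd4 and Fzd6 have fewer bases under INO80 than under H2A.Z.

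Among the ligands, INO80 coverage ran from 0 bp at Wnt8a to 8642 bp at Wnt7b, with a median of 4137 bp. Wnt7b, which encodes a ligand known from lung and vascular development, had 8642 bp under INO80, 575 bp under Ino80cKO H2A.Z and 2417 bp under Ino80WT H2A.Z. Most of its INO80 lay in a single peak (chr15:85575345-85583120, 7776 bp), which holds the sole Ino80cKO peak (chr15:85581460-85582034, 575 bp). The widest Ino80WT peak of the gene (chr15:85580420-85582084, 1665 bp) covers the same place. INO80 thus spanned several times the length of H2A.Z in either genotype.

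Wnt5a, a ligand best known for beta-catenin-independent signalling, had 8055 bp under INO80, 2583 bp under Ino80cKO H2A.Z and 2669 bp under Ino80WT H2A.Z. Its INO80 formed a pair of adjoining wide peaks (chr14:28504021-28508472, 4452 bp, and chr14:28508824-28511910, 3087 bp) and a narrow one. H2A.Z was listed as 8 separate peaks in Ino80cKO and 6 in Ino80WT, the widest at chr14:28504271-28505096 (826 bp) in Ino80cKO and chr14:28504619-28505439 (821 bp) in Ino80WT. Most of these short pieces lay in the 2 wide INO80 peaks, while the piece at the highest coordinates, listed in both genotypes, had no INO80.

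Wnt3, a ligand needed for the primitive streak in mouse embryos, had 5748 bp under INO80, 2379 bp under Ino80cKO H2A.Z and 1736 bp under Ino80WT H2A.Z. Its widest INO80 peak (chr11:103771992-103774897, 2906 bp) spans its start site and also falls in the annotated span of the neighbouring ligand gene Wnt9b. At that place the Ino80cKO list had a single peak of 784 bp and the Ino80WT list 2 peaks of 203 and 250 bp. A further wide INO80 peak lay within Wnt3 (chr11:103809076-103811598, 2523 bp), over the widest H2A.Z of the gene (chr11:103809728-103810600, 873 bp, in Ino80cKO and chr11:103809592-103810471, 880 bp, in Ino80WT). The peaks at the start are counted for both genes, so Wnt3 and Wnt9b are not independent. At its own listed start site Wnt9b had an INO80 peak of 728 bp.

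Wnt3a, the ligand commonly used to activate beta-catenin signalling in culture, had 5507 bp under INO80, 1594 bp under Ino80cKO H2A.Z and 1428 bp under Ino80WT H2A.Z. The INO80 peak at its start (chr11:59288165-59292060, 3896 bp) held 175 bp of Ino80cKO H2A.Z and 2 Ino80WT peaks of 294 and 291 bp. The widest H2A.Z of Wnt3a lay elsewhere in the gene, with a peak of 740 bp in Ino80cKO (chr11:59249118-59249857) and of 595 bp in Ino80WT (chr11:59263859-59264453).

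Wnt6 had 5203 bp under INO80, 1467 bp under Ino80cKO H2A.Z and 2258 bp under Ino80WT H2A.Z. Its INO80 lay in a peak over the listed start site (chr1:74770527-74772761, 2235 bp) and a wider one further into the gene (chr1:74781907-74784874, 2968 bp). The widest H2A.Z peaks of the gene lay over the start site in both genotypes (chr1:74771520-74772327, 808 bp, in Ino80cKO and chr1:74771250-74772292, 1043 bp, in Ino80WT). Unlike H2A.Z, the widest INO80 peak of Wnt6 was away from the listed start.

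Wnt1, the founding member of the family and a patterning gene of the midbrain, had 4352 bp under INO80, 255 bp under Ino80cKO H2A.Z and no Ino80WT H2A.Z. The INO80 peak (chr15:98788986-98793337) covered 54.6% of its window, a larger share than at any of the other 32 genes. The Ino80cKO peak (chr15:98792516-98792770) lay 2659 bp downstream of the start site and was narrow, at the 27.8th percentile of widths in its list. The nearest Ino80WT peak was 13028 bp away. Wnt16 had the opposite H2A.Z pattern. It had 2067 bp under INO80 (chr6:22287774-22289840), no Ino80cKO H2A.Z and 631 bp under Ino80WT H2A.Z (chr6:22288437-22289067, the 64.2nd percentile of its list). The nearest Ino80cKO peak lay 33298 bp from the Wnt16 start site.

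Wnt8a, a ligand of early mesoderm, was the gene without INO80. It held 706 bp of Ino80cKO H2A.Z and 713 bp of Ino80WT H2A.Z, each as 2 peaks, one near each annotated end of the gene. The peaks were chr18:34542048-34542410 (363 bp) and chr18:34547231-34547573 (343 bp) in Ino80cKO, and chr18:34542279-34542451 (173 bp) and chr18:34547089-34547628 (540 bp) in Ino80WT. Its paralogue Wnt8b had H2A.Z of nearly equal length in both genotypes, 679 bp in Ino80cKO and 680 bp in Ino80WT, under an INO80 peak of 1653 bp. All of these lay deep in the Wnt8b gene, with the INO80 peak 17304 bp downstream of the listed start site.

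The remaining ligands fell between these. Wnt11 had 5082 bp under INO80, Wnt10a 4736 bp in 5 peaks, Wnt9b 4679 bp, Wnt5b 4137 bp, Wnt7a 3749 bp, Wnt9a 3413 bp and Wnt4, a ligand required for ovarian development, 3333 bp. Wnt10b had 2829 bp, Wnt2 2768 bp and Wnt2b 2020 bp. At 18 of 19 ligands INO80 covered more bases than Ino80WT H2A.Z, against 28.7% of all genes, and the same number exceeded Ino80cKO H2A.Z (36.7% of all genes). The window of Wnt2b also touches St7l, and that of Wnt5b Fbxl14 and Gm52875, so that a peak there may belong to a neighbour.

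The Frizzled genes had longer H2A.Z than the ligands by their medians. H2A.Z covered a median of 1714 bp at receptors and 757 bp at ligands in Ino80cKO, and 1998 bp at receptors and 1241 bp at ligands in Ino80WT. In gene bodies alone, without the flanks, the medians were 1075 bp at receptors and 679 bp at ligands in Ino80cKO, and 1180 bp at receptors and 1032 bp at ligands in Ino80WT, a smaller difference in both genotypes. The receptor windows were shorter, with a median of 8594 bp against 26906 bp for ligands. The median H2A.Z peak at receptors was 1204 bp wide in Ino80cKO and 1360 bp in Ino80WT, and at ligands 362 bp in Ino80cKO and 458 bp in Ino80WT. Over the whole lists the medians were 422 bp in Ino80cKO and 460 bp in Ino80WT. Receptor H2A.Z was thus wide and ligand H2A.Z of about the ordinary width, while INO80 coverage had medians of 3083 bp at receptors and 4137 bp at ligands.

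Fzd8 had 3864 bp under INO80, 2838 bp under Ino80cKO H2A.Z and 3015 bp under Ino80WT H2A.Z. Fzd7, which encodes a receptor of stem cells, had 3995 bp under INO80, 2493 bp under Ino80cKO H2A.Z and 2887 bp under Ino80WT H2A.Z, each as a single peak over the start site. Fzd5 had 3564 bp under INO80, 2546 bp under Ino80cKO H2A.Z and 2482 bp under Ino80WT H2A.Z. In these genes and in Fzd1, Fzd4 and Fzd10 the widest H2A.Z peak stood at or above the 96.0th percentile of its list in both genotypes. Over all genes with such a peak, the widest one stood at a median percentile of 70.8 in Ino80cKO and 75.8 in Ino80WT.

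Fzd10 had 3507 bp under INO80, 1382 bp under Ino80cKO H2A.Z and 1778 bp under Ino80WT H2A.Z. Fzd1 had 3157 bp under INO80, 2024 bp under Ino80cKO H2A.Z and 2217 bp under Ino80WT H2A.Z. Fzd2 had 3009 bp under INO80, 1404 bp under Ino80cKO H2A.Z and 1381 bp under Ino80WT H2A.Z. Fzd2 was listed with 3 Ino80cKO peaks where Ino80WT had 1, so the covered length was nearly the same while the number of peaks was not. Fzd9 had 2393 bp under INO80, 984 bp under Ino80cKO H2A.Z and 1269 bp under Ino80WT H2A.Z.

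At the other three receptor genes INO80 was narrower than H2A.Z. Fzd4, which encodes the receptor for norrin in retinal vessels, had 1565 bp under INO80, 2314 bp under Ino80cKO H2A.Z and 2219 bp under Ino80WT H2A.Z. Fzd3, a receptor of axon guidance and planar polarity, had 1017 bp under INO80, 1234 bp under Ino80cKO H2A.Z and 1338 bp under Ino80WT H2A.Z. Fzd6, which acts in planar polarity of hair follicles, had 670 bp under INO80, 1204 bp under Ino80cKO H2A.Z and 1208 bp under Ino80WT H2A.Z. INO80 lay within Ino80WT H2A.Z for its whole length at all 3 genes, as it did at 26.4% of all genes with INO80. The window of Fzd4 also touches Tmem135.

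The antagonists had broad INO80 over shorter H2A.Z. INO80 covered 2785 bp at Sfrp1, 1963 bp at Sfrp2, 1858 bp at Sfrp4 and 2165 bp at Sfrp5. Ino80cKO H2A.Z covered 605 bp at Sfrp1, 1045 bp at Sfrp2, 630 bp at Sfrp4 and 239 bp at Sfrp5. Ino80WT H2A.Z covered 1098 bp at Sfrp1, 1233 bp at Sfrp2 and 801 bp at Sfrp4, and Sfrp5 had none. No INO80 peak of an Sfrp gene reached 3 kb, and the widest was that of Sfrp5 (chr19:42200554-42202718, 2165 bp). The Ino80cKO peak of Sfrp5 (chr19:42202062-42202300, 239 bp, the 25.2nd percentile of its list) spans the start site, and the nearest Ino80WT peak lay 31259 bp from it.

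The share of INO80 that lay under H2A.Z compared the subgroups by a percentage instead of a length, though the window still decides which peaks count. At ligands a median of 24.3% of the INO80 bases lay under Ino80cKO H2A.Z (range 0 to 41.1% over 18 genes) and 29.1% under Ino80WT H2A.Z (0 to 64.2%). At receptors the medians were 63.3% in Ino80cKO (34.4 to 100% over 10 genes) and 62.4% in Ino80WT (45.9 to 100%). At antagonists they were 27.8% in Ino80cKO (11.0 to 36.7% over 4 genes) and 36.5% in Ino80WT (0 to 43.1%). Over all genes with INO80 the medians were 69.8% in Ino80cKO and 80.5% in Ino80WT. The ranges of ligands and receptors overlapped in both genotypes. In gene bodies alone the median shares under Ino80WT H2A.Z were 31.6% at ligands and 57.0% at receptors. Less than 50% of INO80 lay under Ino80WT H2A.Z at 16 of 18 ligands, 1 of 10 receptors (Fzd2) and 4 of 4 antagonists, against 22.5% of all genes with INO80. With Ino80cKO H2A.Z the counts were 18 of 18 ligands, 3 of 10 receptors and 4 of 4 antagonists, against 32.5% of all genes with INO80. INO80 covered at least 2 times as many bases as Ino80WT H2A.Z at 15 of 17 ligands with both, 1 of 10 receptors and 2 of 3 antagonists, against 13.5% of all genes with both.

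**Figure D3:**
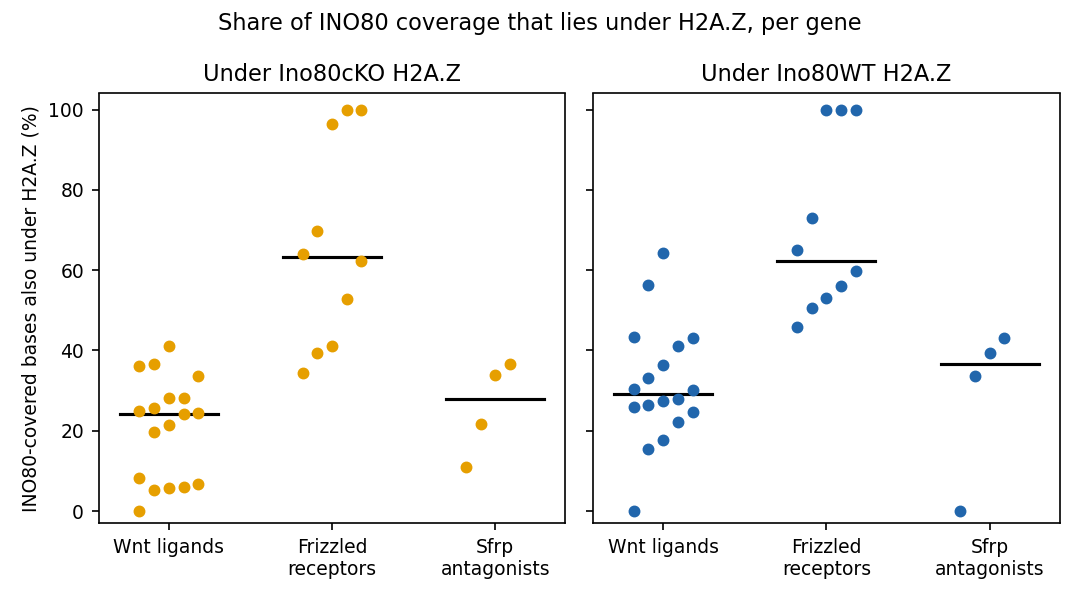
Each point is a gene with INO80, and the height gives the percentage of its INO80-covered bases that also lie under H2A.Z peaks of Ino80cKO (left) or Ino80WT (right), and lines mark medians. The receptor medians are 63.3% in Ino80cKO and 62.4% in Ino80WT, the ligand medians 24.3% in Ino80cKO and 29.1% in Ino80WT, and the ranges overlap.

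The next comparison asked how H2A.Z at these genes differed between Ino80cKO and Ino80WT. H2A.Z in both genotypes was found at 30 of 33 genes (67.4% of all genes), and fewer bases were covered in Ino80cKO at 25 of 33, genes without Ino80cKO H2A.Z included (56.2% of all genes). Of the 30 genes with H2A.Z in both lists, 24 had fewer covered bases in Ino80cKO (80.0%), against 77.3% of all such genes, so this share was near the background. The median ratio of Ino80cKO to Ino80WT bases was 0.824 for the 30 genes and 0.844 over all genes with both. The Ino80cKO list is also the shorter, with 26199 peaks against 33827 in Ino80WT. A peak listed in 1 genotype alone may differ little in strength from an unlisted one.

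The ratio of Ino80cKO to Ino80WT bases ran from 0.224 to 1.37 over 17 ligands, from 0.775 to 1.04 over 10 receptors and from 0.551 to 0.848 over 3 antagonists. Wnt9a had 278 bp in Ino80cKO and 1241 bp in Ino80WT, a ratio of 0.224. Wnt7b had 575 bp in Ino80cKO and 2417 bp in Ino80WT, a ratio of 0.238. Wnt2 had 169 bp in Ino80cKO and 488 bp in Ino80WT, a ratio of 0.346. With Wnt16, which had none in Ino80cKO, these 4 genes had less than 50% of the Ino80WT coverage. They were 4 of 31 genes (12.9%), against 17.6% of all genes with Ino80WT H2A.Z, so the count was not above the background. All 4 were ligands, out of 18 ligands with Ino80WT H2A.Z (22.2%), against the same 17.6% of all genes.

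In the other direction Wnt3 had 2379 bp in Ino80cKO and 1736 bp in Ino80WT, a ratio of 1.37. Besides Wnt3, the genes Wnt1, Wnt3a, Wnt9b, Fzd2, Fzd4, Fzd5 and Sfrp5 had more bases in Ino80cKO. That makes 8 of 33 (15.8% of all genes, those without H2A.Z included). Of the 30 genes with H2A.Z in both lists, 6 had more bases in Ino80cKO, against 3320 of 14749 such genes in all. This share was not above the background. H2A.Z in Ino80cKO alone was found at 2 of 33 genes, Wnt1 and Sfrp5, against 0.631% of all genes, and in Ino80WT alone at 1 of 33, Wnt16, against 4.17% of all genes. The count at each of these 3 genes rests on 1 peak. Fewer separate H2A.Z peaks were listed in Ino80cKO at 10 of 33 genes (16.8% of all genes) and more at 5 of 33 (6.37% of all genes). These shares of all genes include genes without H2A.Z in either list, so they are lower than among genes with H2A.Z.

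**Figure D4:**
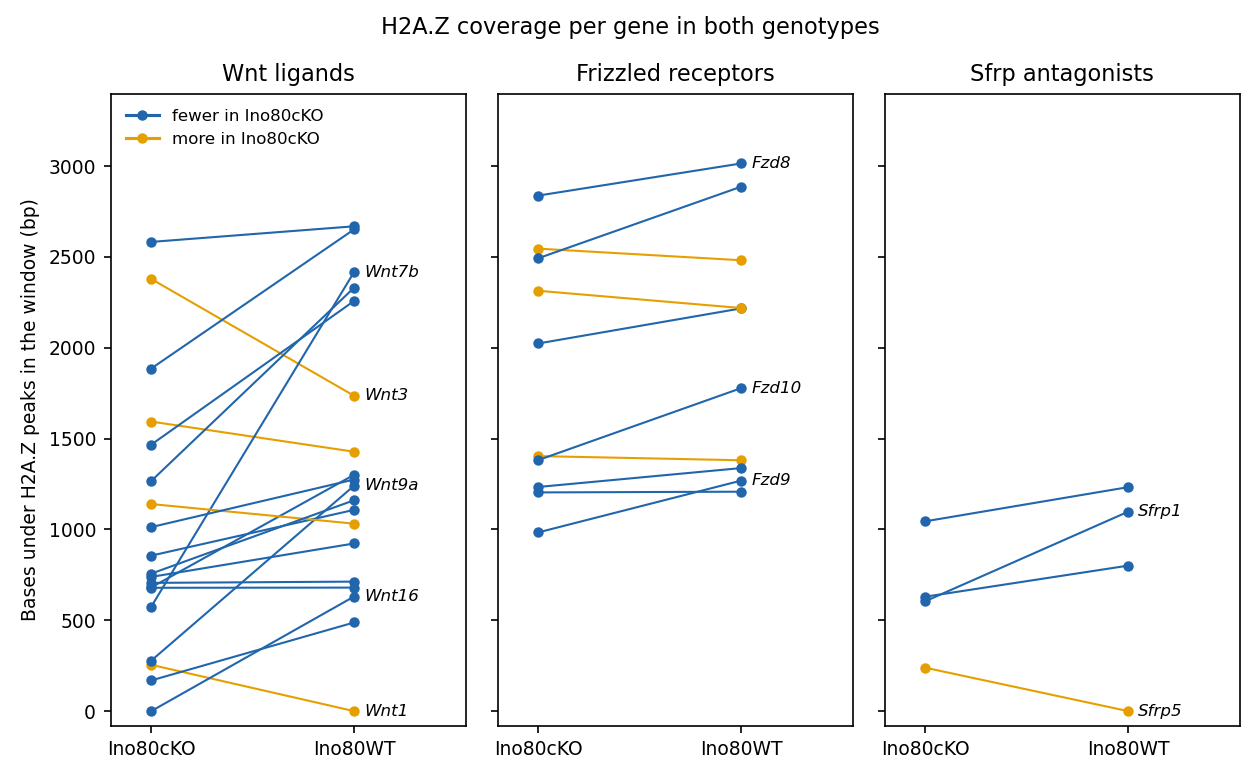
Lines join the bases under H2A.Z peaks in the window of each gene in Ino80cKO (left) and Ino80WT (right), in bp, for ligands, receptors and antagonists. The ratio of Ino80cKO to Ino80WT bases runs from 0.224 to 1.37 among ligands with both and from 0.775 to 1.04 among receptors.

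Joining overlapping H2A.Z peaks of both genotypes gave 71 distinct regions in the 33 windows. Of these, 52 (73.2%) held peaks of both genotypes, 8 (11.3%) of Ino80cKO alone and 11 (15.5%) of Ino80WT alone. In the windows of all protein-coding genes, 75.6% of 23325 regions held both genotypes, 3.98% Ino80cKO alone and 20.4% Ino80WT alone. The 8 regions of Ino80cKO alone lay at Wnt1, Wnt5a (2 regions), Wnt10b, Fzd2 (2 regions), Fzd8 and Sfrp5 and had a median width of 235 bp. The 11 regions of Ino80WT alone had a median width of 295 bp, and 10 of them lay at ligands, which held 50 of the 71 regions. Among them were 2 regions each at Wnt7b, Wnt10b and Wnt11 and single ones at Wnt2, Wnt3a, Wnt9b and Wnt16. The other one lay at Fzd10 and was 193 bp wide. Regions of Ino80WT alone thus made up 10 of 50 ligand regions, which was not above the 20.4% in the windows of all genes.

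INO80 overlapped 7 of 8 regions of Ino80cKO alone, 10 of 11 of Ino80WT alone and 44 of 52 shared regions (84.6%). With the widest 50% of each list it overlapped 2 of 4 regions of Ino80cKO alone and 7 of 10 of Ino80WT alone. Of the shared regions it then overlapped 25 of 27. In the windows of all genes, with the full lists, the shares were 34.6% of regions of Ino80cKO alone, 26.2% of Ino80WT alone and 73.5% of shared regions. Among genes with INO80, it covered a median of 3373 bp of a window here and 943 bp over all genes. The part of that difference in the overlap was not tested. The 2 regions of a single genotype without INO80 lay at Fzd2 (370 bp, Ino80cKO) and Wnt10b (159 bp, Ino80WT).

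Start sites were listed for 23 of the 33 genes, with 26 promoters in all, since Wnt5b and Wnt11 have several. No entry was used for Wnt5a, Wnt7b, Wnt8a, Wnt10a, Fzd2, Fzd3, Fzd6, Fzd8, Sfrp1 and Sfrp4. An INO80 peak lay within 1 kb of a start of 22 of 23 genes, against 56.0% of 17492 genes with a listed start. The exception was Wnt8b. H2A.Z lay within 1 kb of a start at 20 of 23 genes in Ino80cKO (60.9% of genes with a listed start) and at 19 of 23 in Ino80WT (63.9%). INO80 overlapped 23 of 26 promoters (45.6% of 21263), Ino80cKO H2A.Z 18 of 26 (46.6%) and Ino80WT H2A.Z 19 of 26 (53.0%). All 6 listed Frizzled promoters were overlapped by all 3 kinds of peak. Of the 18 ligand promoters, 15 were overlapped by INO80, 10 by Ino80cKO H2A.Z and 12 by Ino80WT H2A.Z.

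INO80 reached further downstream than upstream at 4 of 6 listed receptor starts and at 8 of the 15 ligand starts that it spanned. At the 6 Frizzled starts INO80 extended a median of 718 bp upstream and 2276 bp downstream. At those ligand starts it extended 1107 bp upstream and 994 bp downstream. At Fzd7 it ran from 836 bp before the start to 3158 bp after it, and at Fzd5 from 467 to 3096 bp. Fzd7 is 4809 bp and Fzd5 7193 bp long. Fzd4 (1053 bp before and 511 bp after) and Fzd10 (1914 bp before and 1592 bp after) had the longer reach upstream. At Wnt3, in contrast, it ran from 2183 bp before the start to 722 bp after it. H2A.Z at the Frizzled starts extended a median of 660 bp upstream and 1342 bp downstream in Ino80cKO, and 849 bp upstream and 980 bp downstream in Ino80WT. These counts and reaches were not set beside those over all listed starts. They therefore do not show whether the genes differ from other genes in this respect.

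**Figure D5:**
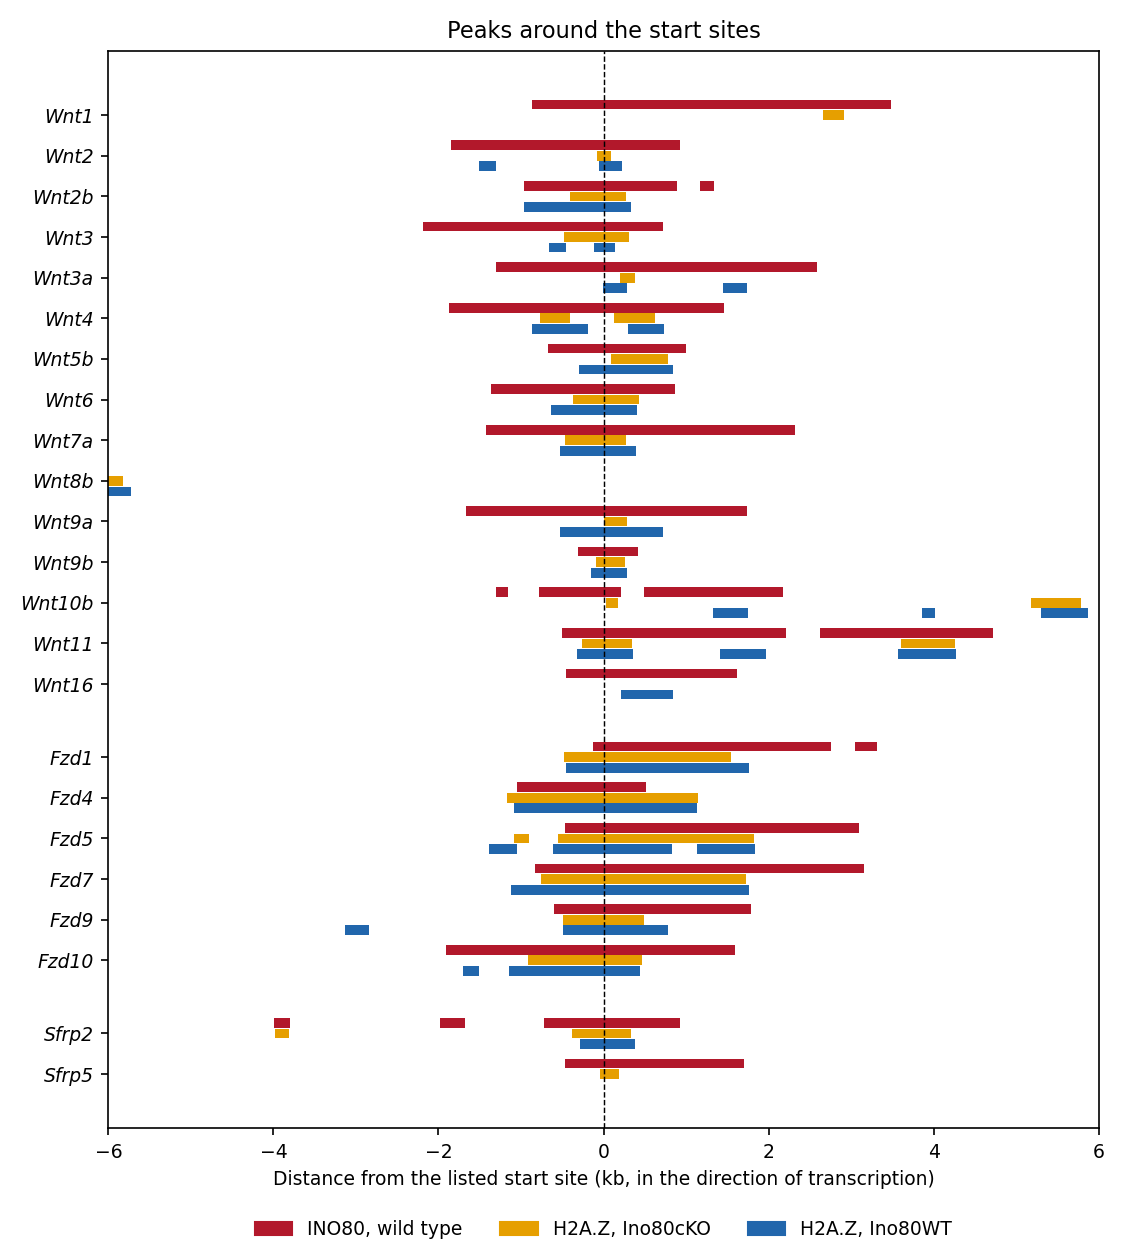
Bars show the peaks of INO80, Ino80cKO H2A.Z and Ino80WT H2A.Z within 6 kb of the outermost listed start site of each of 23 genes, with distance in kb in the direction of transcription and the start site at 0. H2A.Z forms short stretches inside INO80 at most ligands and longer ones at the Frizzled genes, and Wnt8b has no peak within 1 kb of its start.

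The promoters were rich in CpG. The 26 promoters had a median of 28 CpG dinucleotides and 71.0% GC, against 13 CpG and 56.3% GC over all promoters and 25 CpG and 65.0% GC over the 9686 promoters under INO80. The ratio of observed to expected CpG had a median of 0.782 for these genes, 0.567 for all promoters and 0.808 for promoters under INO80. The 3 promoters without INO80, those of Wnt8b and of the 2 inner starts of Wnt5b, held 6, 7 and 4 CpG. Among promoters of these genes under INO80 the lowest number was 10, at Wnt16. The motif CCATNTT, a core recognised by YY1, which binds DNA and associates with INO80, was searched on both strands. It was found in 0 of 26 promoters, in 15.1% of all promoters and in 14.4% of promoters under INO80. The motif CTTTGAT is a form of the site bound by TCF and LEF factors, which carry the nuclear response to Wnt. It was found in 2 of 26 promoters, at Wnt11 and at an inner start of Wnt5b without INO80. Of all promoters 3.22% held it, and of promoters under INO80 1.77%. The motif counts were not adjusted for GC content. A promoter without a match says only that these letters are not in it.

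Genes acting elsewhere in the pathway held INO80 as often but in narrower peaks. Their windows were longer, with a median of 70639 bp against 20905 bp for the 33 genes and 21169 bp for all genes. A list of 47 other Wnt pathway genes held INO80 at 46 (61.4% of all genes), Ino80cKO H2A.Z at 46 (68.0% of all genes) and Ino80WT H2A.Z at 45 (71.6% of all genes). Dkk4, a secreted Lrp antagonist, had no peak of any kind. INO80 peaks of at least 3 kb lay at 3 of 47, against 2.55% of all genes. INO80 covered more bases than Ino80WT H2A.Z at 29 of 33 ligand, receptor and antagonist genes (87.9%), at 23 of 47 other pathway genes (48.9%) and at 28.7% of all genes. The median INO80 coverage of the 47 was 1594 bp, and the median share of INO80 under Ino80WT H2A.Z was 72.6%.

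By role, the widest INO80 peaks among co-receptor genes were those of Ror2, a co-receptor for Wnt5a (1959 bp), and Lrp5 (1472 bp). Among genes of ligand secretion and release they lay at Notum, a deacylase that inactivates Wnt (3684 bp), and Wls, the Wnt carrier (850 bp). Among other secreted antagonists, Dkk2 had 3558 bp and Frzb, a secreted frizzled-related gene without an Sfrp symbol, 1593 bp. In its window Frzb had 1788 bp under INO80 and 1949 bp under Ino80WT H2A.Z. INO80 covered more bases than Ino80WT H2A.Z at 2 of these 7 antagonists, against 4 of 4 Sfrp genes and 28.7% of all genes. Among genes of the R-spondin axis, which keeps receptors at the surface, Rspo3 had 2903 bp and the stem cell receptor gene Lgr5 2484 bp. Among cytoplasmic components, the feedback target Axin2 had 2176 bp and the beta-catenin gene Ctnnb1 1618 bp. Tcf7l1 (2964 bp) and Lef1 (2829 bp) led the nuclear factors, and the planar polarity cadherins Celsr1 (4256 bp) and Celsr3 (2488 bp) the polarity genes. Notum, Dkk2 and Celsr1 were the 3 genes of the list with a peak of at least 3 kb.

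Families of developmental transcription factors had wide INO80 as well. The 39 Hox genes all held INO80, 11 of them (28.2%) in a peak of at least 3 kb (2.55% of all genes), and their median share of INO80 under Ino80WT H2A.Z was 29.0%, next to 29.1% for the ligands. The 44 Fox genes held INO80 at 39, with 14 (31.8%) in a peak of at least 3 kb, and a median share of 60.6%, next to 62.4% for the receptors. Hox genes lie in clusters and share peaks, and none of these differences was tested.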

How the data were processed

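ChIP-seq was made by the submitters from spermatogenic cells fixed in 0.3% formaldehyde for 30 min, with chromatin cut by micrococcal nuclease, per the labels' protocols, so peak outlines also reflect nucleosome positions. The authors deposited 3 lists of peak positions on mm10 (chromosome, start and end), with no score, depth or p-value. The submitters' processing notes name Bowtie2, SAMtools, deepTools and MACS2, without versions; the sources used here do not give the peak threshold, the control or how both libraries of a group became 1 list. Input libraries were not analysed here.

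Genes came from RefSeq GRCm38.p6 on chromosomes 1 to 19, X and Y, without strand; start sites came from the RefSeq promoter table. Starts were converted to count from 1. Peaks, covered bases (clipped to the window) and joined H2A.Z regions were computed with Python 3.11.15, numpy 2.4.6 and pandas 2.3.3, drawn with matplotlib 3.10.9, checked against bedtools 2.31.1 (4 of 4 counts equal) and tested on simulated data. Width percentiles rank a peak within its own list.

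The genes and the lists (the other pathway genes, Hox and Fox) were chosen with earlier results of these data known. Positions are printed for the 5 genes with the most INO80 coverage, the gene without INO80 and the genes with H2A.Z in 1 genotype only. Receptor, promoter and other peaks shown beyond these, and the neighbours named, were chosen after their values were seen. From each pathway class the 2 widest INO80 peaks and genes without INO80 are named. With 1 list per group no test was possible; shares over all protein-coding genes stand in for it.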

Additional observations from a re-analysis of the deposited data

How the results depend on the processing

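Across 7 alternative settings, 149 of 159 values stayed within 1.5 times the reported one and 10 moved further. INO80 was found at 32 genes with no flank, with 5 kb flanks and with at least 50% of a peak inside the window, and at 31 with the widest 50% of each list. Restricting to 1 kb around a listed start, which 23 genes have, gave H2A.Z at 20 genes in Ino80cKO and 19 in Ino80WT. The widest 50% of each list left 27 shared regions (25 with INO80) and 4 regions of Ino80cKO alone (2 with INO80), and lowered the median Ino80WT coverage of ligands to 680 bp. Shortening the Ino80WT list by width to the Ino80cKO length left 7 regions of Ino80WT alone, by construction. Counting gene bodies alone, an alternative chosen after seeing the data, gave median receptor coverage of 1075 bp in Ino80cKO and 1180 bp in Ino80WT (ligands 679 bp in Ino80cKO and 1032 bp in Ino80WT), since H2A.Z in the flanks was left out. The median share of INO80 under Ino80WT H2A.Z stayed higher at receptors (57.0 to 65.0%) than at ligands (19.7 to 31.6%) under the 6 settings that give it. No paired analysis was possible because each group has 1 list, and for the same reason no replicate could be left out. Depth is unknown, so a peak absent from a list may be one that missed its threshold.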
